A study of Homo sapiens with 13 samples.

Results

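The MYC network genes encode MYC and the proteins that share its partner MAX or the MAX-like protein MLX. They were taken here as 9 genes, MYC, MAX, MXI1, MXD1, MXD3, MXD4, MNT, MGA and MLX, out of 20033 protein-coding genes in the RefSeq table for GRCh38. Each gene span was extended by 1 kb on either side, and every deposited peak that overlapped it by at least 1 bp was collected. All 9 genes were found in the table. The peaks mark chromatin bound by GFP-tagged DNMT1, the maintenance methyltransferase that restores CpG methylation after replication. They were obtained with an antibody against GFP in MV4-11 cells, an established line of acute myeloid leukaemia. All 10 GFP-DNMT1 libraries come from cells that carried a guide against endogenous DNMT1 together with an ectopic GFP-DNMT1. In the WT line the tagged protein was wild type. In the RFTSdel line it lacked the RFTS domain, the targeting domain in the N-terminal part of the protein. The NTC and UHRF1KO lines had wild-type GFP-DNMT1 with, respectively, a non-targeting guide or a guide against UHRF1, the protein that recognises hemimethylated DNA and recruits DNMT1. Each line received DMSO or the DNMT1 inhibitor GSK-3685032 at 100 nM for 7 days (DNMT1i). Each treatment is represented by a single library of NTC, UHRF1KO and WT and by 2 of RFTSdel. Parental cells without GFP were untreated and are represented by 1 library in all.

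The sample labels place WT, RFTSdel and parental cells in batch 1 and NTC and UHRF1KO in batch 2, so that DMSO and DNMT1i are balanced within each batch and RFTSdel shares a batch with WT and UHRF1KO with NTC. The labels do not give the RFTSdel replicates as separate cultures, so the spread between them may be technical. SDs over pairs run across different lines and both batches, so they also hold differences between constructs. The p-values rest on the same libraries. Peak lists hold no read counts, so the depth behind each list is unknown, and they give no check of cell identity, of the DNMT1 and UHRF1 guides or of expression. After peaks shared with the parental library were removed, the DMSO lists held 12245 to 32534 peaks and the DNMT1i lists 4254 to 11141. The RFTSdel DNMT1i lists were the longest of the DNMT1i lists, at 7561 and 11141 peaks, and the WT DNMT1i list was the shortest. The parental list of 426 peaks held 0 peaks over the 9 genes.

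MYC is a transcription factor that binds DNA as a dimer with MAX, preferably at the E-box sequence CACGTG, and promotes growth and proliferation. MXD1, MXI1, MXD3, MXD4, MNT and MGA also pair with MAX and act mostly as repressors at the same kind of site: the MXD proteins and MNT through SIN3 and histone deacetylases, MGA as a subunit of the polycomb complex PRC1.6. MLX is the partner of the glucose-responsive factors MLXIP and MLXIPL and can also bind some MXD proteins and MNT. MYC is a well-known driver in myeloid leukaemia.

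MXI1, a repressor of the MXD family also known as MXD2, had starts that differed in their peaks after DNMT1i. RefSeq gives it 3 starts on the plus strand of chromosome 10. The 250 bases before the first and the third start are shown because peaks lay over them in different libraries, as described further on. Capitals mark CpG, the dinucleotide that DNMT1 methylates, and the sequences are from RefSeq (GRCh38.p14).
MXI1 promoter 1, chr10:110207355-110207604, plus strand: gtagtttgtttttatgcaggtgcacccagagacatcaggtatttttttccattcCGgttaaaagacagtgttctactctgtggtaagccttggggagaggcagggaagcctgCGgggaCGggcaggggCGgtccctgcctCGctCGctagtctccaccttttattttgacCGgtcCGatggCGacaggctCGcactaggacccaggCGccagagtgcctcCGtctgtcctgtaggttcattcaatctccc
MXI1 promoter 3, chr10:110225746-110225995, plus strand: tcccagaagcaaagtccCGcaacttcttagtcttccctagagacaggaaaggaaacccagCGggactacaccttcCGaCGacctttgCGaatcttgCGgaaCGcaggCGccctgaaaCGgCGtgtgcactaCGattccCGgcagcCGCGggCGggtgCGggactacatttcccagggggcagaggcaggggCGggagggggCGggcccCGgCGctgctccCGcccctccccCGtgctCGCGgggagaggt
Promoter 1 holds 12 CpG in this stretch and promoter 3 holds 24. The 300-base windows around these starts (250 bases before to 50 after) hold 14 and 35 CpG, against a median of 21 over 22198 such windows of 15842 genes. The window of the second MXI1 start holds 33 CpG.

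Promoter windows were found for 8 of the 9 genes, 13 windows in all. Their CpG count ran from 12 in MXD3 to 40 in MNT, with a median of 27. The E-box CACGTG, which reads the same on both strands, was searched for because it is the site that the network's own dimers bind. It was present in 3 of the 13 windows, those of MXD4, MNT and MLX, and in 8.34% of all windows of this length. Capitals mark the E-box in the stretches around it, from RefSeq (GRCh38.p14).
MXD4, chr4:2262322-2262359, minus strand: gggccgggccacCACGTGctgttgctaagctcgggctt
MNT, chr17:2401228-2401273, minus strand: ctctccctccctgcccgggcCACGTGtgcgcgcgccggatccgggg
MLX, chr17:42567030-42567075, plus strand: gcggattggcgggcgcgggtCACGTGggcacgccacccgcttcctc
The E-box begins 238 bases before the first base of MXD4, 193 before that of MNT and 50 before that of MLX. A match is a description of the letters and no evidence of binding. GFP-DNMT1 peaks lay over the MXD4 and MNT windows in all 5 DMSO libraries and in 2 DNMT1i libraries each, and over the MLX window in 4 DMSO libraries and 1 DNMT1i library.

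Under DMSO, GFP-DNMT1 peaks lay over nearly every gene of the network. All 9 genes had a peak in NTC, where 60.7% of all protein-coding genes had one, and all 9 in UHRF1KO, where the share of all genes was 65.6%. In WT, 7 of the 9 genes had a peak (all genes, 52.9%), MXD3 and MLX having none. In RFTSdel, all 9 had one in replicate 1 (all genes, 51.0%) and in replicate 2 (all genes, 54.1%). The members' share was above that of all genes in each of these 5 libraries. In all 5 DMSO libraries together, 7 members had a peak, against 39.4% of all genes.

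After DNMT1i, the network differed by line. In NTC, 2 of the 9 genes had a peak, MAX and MGA (all genes, 20.6%). In UHRF1KO, 2 had a peak, MAX and MXI1 (all genes, 20.5%). In WT, 0 had one (all genes, 14.8%). In RFTSdel replicate 1, 6 had a peak, MYC, MAX, MXI1, MXD4, MNT and MGA (all genes, 34.2%), and in replicate 2 all 9 had one (all genes, 47.3%). The members' shares in NTC and UHRF1KO were near those of all genes, while in both RFTSdel libraries they were above them. In RFTSdel they already stood above under DMSO, with all 9 members against 51.0% and 54.1% of all genes. Among genes with a DMSO peak, the share without one after DNMT1i was computed for WT alone.

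**Figure D1:**
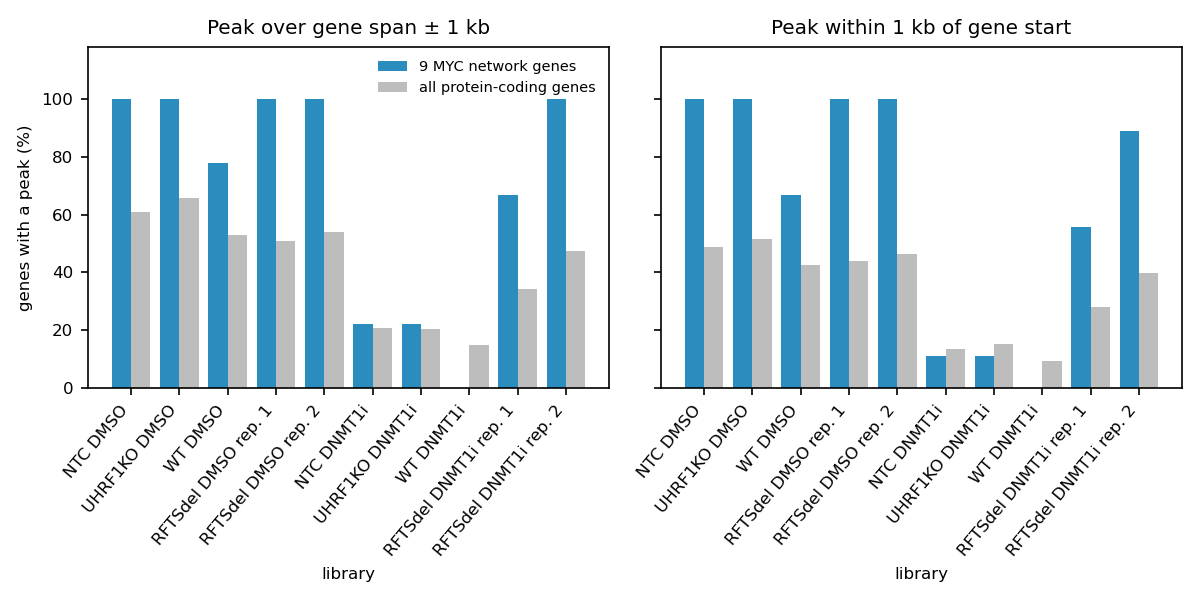
Percent of genes with a GFP-DNMT1 peak in each library, over the gene span ± 1 kb (left) and within 1 kb of the gene start (right), for the 9 MYC network genes (blue) and all 20033 protein-coding genes (grey). The network stands above all genes in the DMSO and RFTSdel DNMT1i libraries, and WT DNMT1i has 0 of the 9 genes.

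Near gene starts the counts fell in each line too. A peak within 1 kb of the start was found under DMSO at 9 genes in NTC (all genes, 48.8%), 9 in UHRF1KO (51.4%), 6 in WT (42.4%), and 9 in each RFTSdel replicate (43.8% and 46.3%). After DNMT1i it was found at 1 gene in NTC (all genes, 13.6%) and 1 in UHRF1KO (15.0%), MAX in both cases, at 0 in WT (9.3%), at 5 in RFTSdel replicate 1 (28.0%) and at 8 in replicate 2 (39.8%). MXI1 was the gene without a start peak in RFTSdel replicate 2. The number of members with a peak changed between DMSO and DNMT1i by -7 in NTC, UHRF1KO and WT, by -3 in RFTSdel replicate 1 and by 0 in replicate 2, a mean of -4.8 ± 3.19 (SD, n = 5 pairs), with -3.33 ± 3.51 (n = 3) in batch 1 and -7.0 ± 0.0 (n = 2) in batch 2. For start peaks the mean was -5.4 ± 2.97 (SD, n = 5 pairs), lower in 5 of 5 pairs, with -3.67 ± 2.52 (n = 3) in batch 1 and -8.0 ± 0.0 (n = 2) in batch 2. The share of all genes with a peak changed by -29.4 ± 16.6 percentage points over the same pairs. The genes were chosen with results known, so these member counts carry no p-value.

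The fall in the number of peaks over the network went with shorter lists as a whole. When all lists were shortened to the 4254 peaks with the highest -log10 q of the authors, 5, 4, 3, 3 and 4 members had a peak under DMSO in NTC, UHRF1KO, WT and the 2 RFTSdel replicates, where the shares of all genes were 19.2%, 19.5%, 18.8%, 21.7% and 21.7%. The corresponding counts after DNMT1i were 1, 2, 0, 5 and 5, with 16.0%, 19.1%, 14.8%, 20.4% and 20.8% of all genes. At this length the members' counts were lower after DNMT1i in NTC, UHRF1KO and WT and higher in both RFTSdel replicates, while the share of all genes was lower in all 5 pairs. The mean change in members with a start peak turned from -5.4 to 0.2 at this length.

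The extent of binding was measured as covered length, the number of bases of a gene span ± 1 kb that lie under peaks. Summed over the 9 genes it was 20130 bp (NTC), 26894 (UHRF1KO), 14131 (WT), 19367 and 24880 (RFTSdel) under DMSO. With DNMT1i it was 2192, 1329, 0, 8933 and 15144 bp in the same order. Every line had less after treatment. The log2 ratio of DNMT1i to DMSO averaged -2.34 ± 1.72 (SD, n = 4 pairs), WT giving no ratio because it is listed at 0. It was -0.92 ± 0.28 (n = 2) in batch 1 and -3.77 ± 0.81 (n = 2) in batch 2. Without WT, batch 1 is here RFTSdel alone and batch 2 is NTC and UHRF1KO, so batch and construct cannot be told apart.

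**Figure D2:**
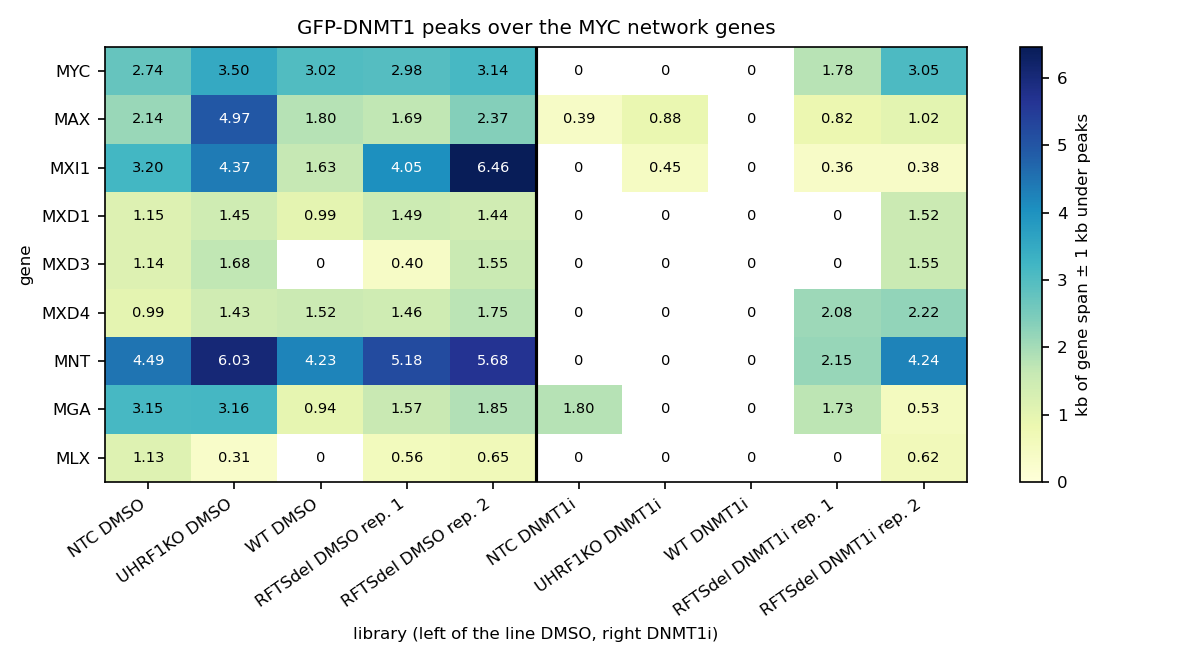
Covered length (kb of gene span ± 1 kb under GFP-DNMT1 peaks) of each MYC network gene (rows) in each library (columns, DMSO left of the line, DNMT1i right), by colour and printed value. After DNMT1i, covered length is at 0 for most genes in NTC, UHRF1KO and WT, and above 0 for 6 and 9 genes in the 2 RFTSdel replicates.

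MYC (gene ID 4609, chromosome 8, 127735434 to 127742951) had covered lengths under DMSO of 2738 bp (NTC), 3496 (UHRF1KO), 3015 (WT), 2977 and 3144 (RFTSdel). With DNMT1i, MYC was listed at 0 in NTC, UHRF1KO and WT and had 1785 and 3054 bp in RFTSdel. The DNMT1i libraries thus fell into 3 at 0 and 2 with a peak, and the second RFTSdel replicate lay within the DMSO range. Apart from a 213 bp peak at the upper end in UHRF1KO DMSO, the peaks formed 1 broad stretch from before the lower end of the gene into its body. In WT DMSO it was a single peak from 617 to 3631 bases inside the gene, with a fold enrichment of 3.45, the authors' ratio of signal to background. After DNMT1i in RFTSdel, single peaks ran from 623 to 2407 bases (fold 4.1, the peak being above 80.9% of its list by -log10 q) and from 202 to 3255 bases (fold 3.98). RFTSdel libraries were paired by replicate number alone, and for MYC the DNMT1i value of replicate 2 (3054 bp) lay above the DMSO value of replicate 1 (2977 bp), so the direction in every pair depends on this pairing. The mean change of MYC was -2106 ± 1419 bp (SD), lower in 5 of 5 pairs as numbered, with an exact sign-flip permutation p of 0.0625 and an adjusted p of 0.175.

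MAX (gene ID 4149, minus strand of chromosome 14, 65006101 to 65102695), the common partner, was the member with a peak in the most libraries, 9 of 10. Its covered length under DMSO was 2136 bp (NTC), 4968 (UHRF1KO), 1803 (WT), 1688 and 2365 (RFTSdel). The DNMT1i values were 389, 882, 0, 824 and 1024 bp in the same order, and the treatments did not overlap. The peak at its start was called in all 5 DMSO libraries, 875 to 1476 bp wide, and in 4 DNMT1i libraries, 389 to 824 bp wide. These DNMT1i peaks were the narrower ones in each line. In UHRF1KO DNMT1i the start peak was among the stronger ones of its list, with a fold of 6.67 and above 93.5% of the list, and in NTC DMSO it was above 97.2%. It ranked low in RFTSdel DNMT1i replicate 1, with a fold of 3.52 and above 9.33% of the list. In the remaining libraries that had it, it stood above 49.2% (RFTSdel DMSO replicate 1) to 93.0% (UHRF1KO DMSO). MAX changed by -1968 ± 1242 bp (SD), and all 5 pairs were lower (exact sign-flip permutation p = 0.0625, adjusted p = 0.175).

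A further MAX site, 65054356 to 65055168, was called in all 5 DMSO libraries and in UHRF1KO DNMT1i, and another, 65044457 to 65045837, in 4 DMSO libraries and 0 DNMT1i libraries. Both also lie inside FNTB, which encodes a farnesyltransferase subunit, and inside the readthrough gene CHURC1-FNTB, so that peaks there belong to no single gene. The second also covers the microRNA gene MIR4706. A peak at 65038238 to 65038689 in RFTSdel DNMT1i replicate 2 was the single network site of 26 with no DMSO peak, and it ranked low, above 2.98% of its list.

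**Figure D3:**
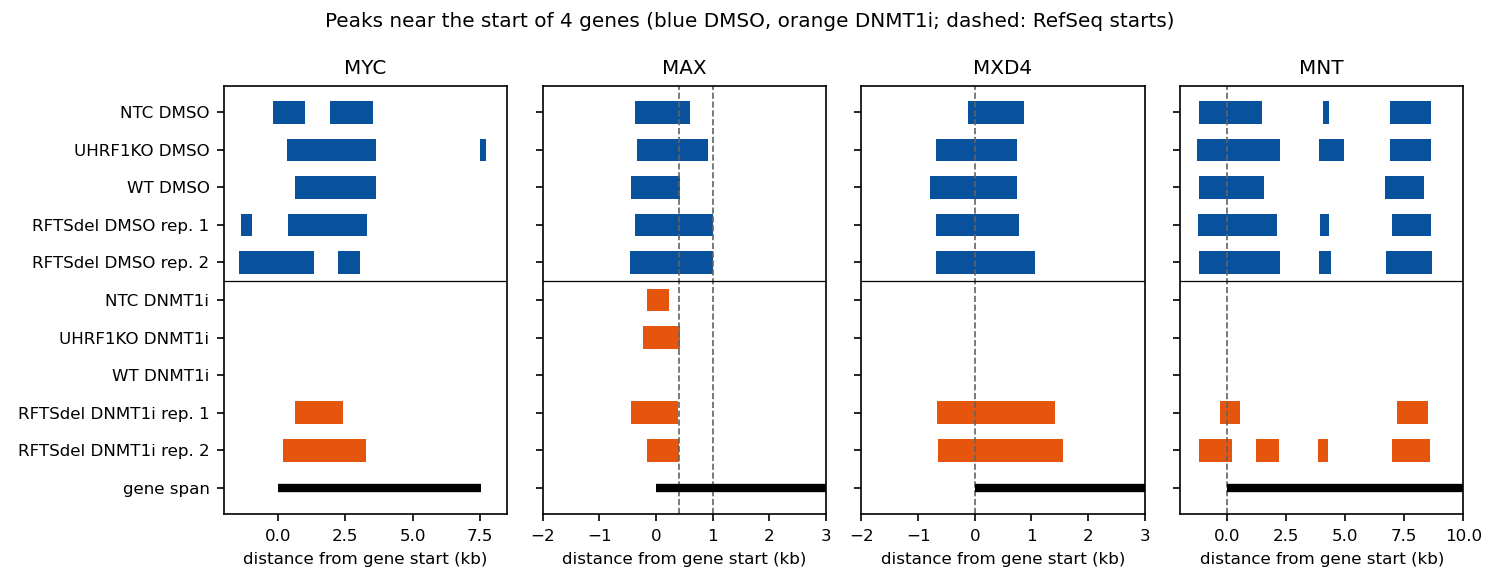
Peaks near the start of MYC, MAX, MXD4 and MNT, one row per library (blue DMSO, orange DNMT1i), drawn by distance from the gene start in kb (for MYC, from its lower end). Black bars are gene spans and dashed lines RefSeq starts. MAX has a start peak in 4 DNMT1i libraries, the other 3 genes in the 2 RFTSdel libraries.

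MLX (gene ID 6945, plus strand of chromosome 17, 42567100 to 42573203), the MAX-like partner, had covered lengths under DMSO of 1126 bp (NTC), 311 (UHRF1KO), 0 (WT), 556 and 646 (RFTSdel). Of the DNMT1i libraries, RFTSdel replicate 2 had 620 bp and the other 4 were listed at 0. All of its peaks lay in 1 site over the start. MLX changed by -403.8 ± 463.4 bp (SD), lower in 4 pairs and equal, at 0, in WT (exact permutation p = 0.125, adjusted p = 0.235). The spread over pairs was larger than the mean change.

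MXI1 (gene ID 4601, plus strand of chromosome 10, 110207605 to 110287365) had covered lengths under DMSO of 3201 bp (NTC), 4368 (UHRF1KO), 1632 (WT), 4049 and 6461 (RFTSdel). Inhibitor-treated cells had 0, 447, 0, 359 and 378 bp, and the treatments did not overlap. Its 2 main sites had peaks in different libraries after DNMT1i. The site over the first start, 110207415 to 110211511, joins peaks across libraries and also reaches the second start. It was called in all 5 DMSO libraries and in 0 DNMT1i libraries. In WT DMSO it held only a 298 bp peak, 2018 to 2315 bases past the first start, which reached neither start window. The UHRF1KO DMSO peak did not reach the window of the second start. The site at the third start, 110225627 to 110227728, was called in all 5 DMSO libraries, 1055 to 1948 bp wide, and in 3 DNMT1i libraries, UHRF1KO and both RFTSdel, 359 to 447 bp wide. The 300-base window of the first start lay under a peak in 4 DMSO and 0 DNMT1i libraries, that of the second in 3 and 0, and that of the third, with its 35 CpG, in 5 and 3. In UHRF1KO DNMT1i the peak at the third start had a fold of 5.89 and stood above 92.4% of its list. The difference between the sites was not tested. MXI1 changed by -3705 ± 1601 bp (SD), and all 5 pairs were lower (exact sign-flip permutation p = 0.0625, adjusted p = 0.175).

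**Figure D4:**
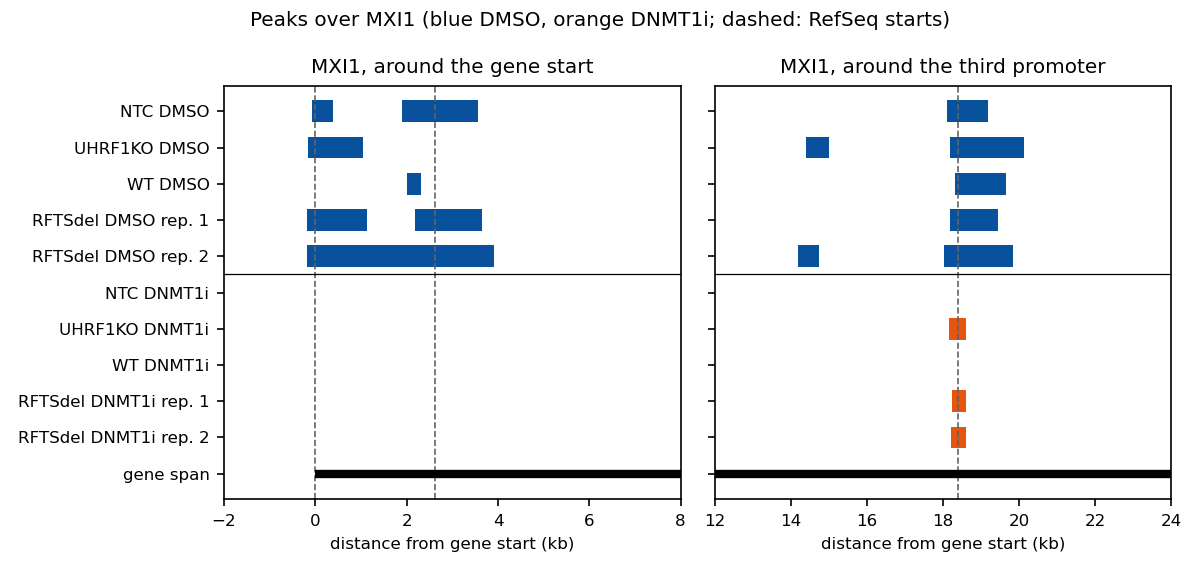
Peaks over MXI1 in each library (blue DMSO, orange DNMT1i) by distance from the gene start in kb, around the first 2 starts (left) and the third (right). Dashed lines are RefSeq starts and the black bar is the gene span. DNMT1i peaks are at the third start only, 359 to 447 bp wide.

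MXD1 (gene ID 4084, plus strand of chromosome 2, 69915109 to 69942945), a repressor linked to myeloid differentiation, had covered lengths under DMSO of 1154 bp (NTC), 1452 (UHRF1KO), 987 (WT), 1491 and 1438 (RFTSdel). Under DNMT1i it was listed at 0 except in RFTSdel replicate 2, at 1525 bp. That value lies above each DMSO value. The peaks all lay over the start, in 1 site. MXD1 changed by -999.4 ± 642.4 bp (SD), and 4 of the pairs were lower (exact sign-flip permutation p = 0.125, adjusted p = 0.235).

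MXD3 (gene ID 83463, minus strand of chromosome 5, 177305499 to 177312752), an MXD protein expressed in proliferating cells, had covered lengths under DMSO of 1139 bp (NTC), 1676 (UHRF1KO), 0 (WT), 397 and 1550 (RFTSdel). RFTSdel replicate 2 had 1555 bp with DNMT1i, and the other 4 DNMT1i libraries were listed at 0. The treatments overlapped. Its start site was called in 4 DMSO libraries and in RFTSdel DNMT1i replicate 2, and in the DMSO libraries the peaks began 57 to 404 bases inside the gene, outside the 300-base promoter window. A site near the other end, 177306903 to 177307945, was called in NTC and UHRF1KO under DMSO and in RFTSdel DNMT1i replicate 2. Of these peaks the one of UHRF1KO also reached the neighbouring gene PRELID1. A peak of RFTSdel DMSO replicate 2 at 177303532 to 177304580, over PRELID1 and RAB24, reached only the added flank. MXD3 changed by -641.4 ± 742.8 bp (SD), with 3 pairs lower and 1 higher (exact sign-flip permutation p = 0.25, adjusted p = 0.37).

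MXD4 (gene ID 10608, minus strand of chromosome 4, 2247432 to 2262109), another MXD repressor, had covered lengths under DMSO of 993 bp (NTC), 1429 (UHRF1KO), 1524 (WT), 1459 and 1750 (RFTSdel). The DNMT1i libraries of NTC, UHRF1KO and WT were listed at 0, and those of RFTSdel had 2084 and 2219 bp. Both RFTSdel DNMT1i values lay above all 5 DMSO values. All its peaks lay in 1 site over the start, and all but that of NTC DMSO, which began nearer the start, also took in the E-box. In RFTSdel replicate 1 the fold was 7.24 under DMSO, the highest of all network peaks, and 4.78 after DNMT1i, where the peak was wider. In replicate 2 the fold was 5.22 under DMSO and 4.32 after DNMT1i. Thus covered length was higher and fold lower after DNMT1i in both replicates. MXD4 changed by -570.4 ± 1041 bp (SD) over all pairs, lower in 3 and higher in 2 (exact permutation p = 0.312, adjusted p = 0.455). It was the 1 member with more covered length after DNMT1i in both RFTSdel pairs and less in the other 3, a pattern of 2.68% of all genes. The pattern was absent with only peaks of -log10 q of at least 4, where RFTSdel had MXD4 peaks under DMSO alone.

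MNT (gene ID 4335, minus strand of chromosome 17, 2384073 to 2401060), a broadly expressed antagonist of MYC, had covered lengths under DMSO of 4489 bp (NTC), 6033 (UHRF1KO), 4234 (WT), 5183 and 5678 (RFTSdel). DNMT1i left 2147 and 4244 bp in RFTSdel, with NTC, UHRF1KO and WT listed at 0. RFTSdel DNMT1i replicate 2 thus lay at the lower edge of the DMSO range. MNT had 3 sites, a start site with peaks summing to 2657 to 3530 bp under DMSO and to 869 and 2385 bp in RFTSdel DNMT1i, and 2 sites inside the gene. The inner site farthest from the start, 2392372 to 2394394, was present in each DMSO library, 1665 to 1957 bp wide, and with DNMT1i in both RFTSdel replicates, at 1278 and 1624 bp. In each RFTSdel replicate the start site lost more of its width than this inner one. MNT changed by -3845 ± 1719 bp (SD), and all 5 pairs were lower (exact sign-flip permutation p = 0.0625, adjusted p = 0.175).

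MGA (gene ID 23269, plus strand of chromosome 15, 41621224 to 41769940), a large protein that carries a T-box besides its MAX-binding domain, had covered lengths under DMSO of 3154 bp (NTC), 3161 (UHRF1KO), 936 (WT), 1567 and 1848 (RFTSdel). In the same order the DNMT1i values were 1803, 0, 0, 1734 and 525 bp, and the treatments overlapped. Its start site was present in each DMSO library and, with DNMT1i, in both RFTSdel replicates, where the peaks were 390 and 265 bp wide and ranked low, above 1.62% and 10.2% of their lists. An inner site, 41660157 to 41662187, spans the other 2 RefSeq starts of MGA and was called in 4 DMSO libraries, not in WT, and in NTC and both RFTSdel DNMT1i libraries. Under DMSO only the NTC peak reached back over these starts. In NTC, DNMT1i left this inner site (1803 bp, against 1990 bp under DMSO) and no peak at the first start. This NTC DNMT1i peak also ranked low, with a fold of 3.6 and above 10.3% of its list. Under DMSO the NTC peak had a fold of 4.24 and stood above 67.1%. MGA changed by -1321 ± 1199 bp (SD), and 4 of the pairs were lower (exact sign-flip permutation p = 0.125, adjusted p = 0.235).

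Over all lines, DNMT1i gave less covered length in 5 of 5 pairs at 4 members, MYC, MAX, MXI1 and MNT, a pattern of 27.2% of all genes. At MAX, MXI1 and MNT both RFTSdel DNMT1i values lay below both RFTSdel DMSO values, while for MYC the pattern depends on how the RFTSdel replicates are paired. The median change was -1321 bp over the 9 genes and -451 bp over the 15663 genes tested, those with a peak in any GFP-DNMT1 library. With 5 pairs the exact two-sided sign-flip test cannot go below p = 0.0625, which 5609 genes reached, these 4 among them, so 0 genes could pass an adjusted p of 0.05, and 0 had an unadjusted p under 0.05. Compared as unpaired groups of 5, where the smallest exact permutation p is 0.0079, 3095 genes passed, 6895 having an unadjusted p under 0.05. MAX and MXI1 were among them, each at an adjusted p of 0.0402, while MNT was at 0.0599 and MYC at 0.0925. In the WT line, 7 of the 7 members with a DMSO peak had none after DNMT1i, as did 83.0% of all 10607 genes with a WT DMSO peak. A peak in all 5 DMSO libraries with none after DNMT1i was found at 0 members and 4.38% of all genes.

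The RFTSdel line differed from WT at the network under DNMT1i, with 6 and 9 members with a peak against 0. The difference of the RFTSdel mean from WT was 7.5 ± 2.12 members (SD over the RFTSdel replicates, n = 2), and under DMSO it was 2.0. A peak in both RFTSdel DNMT1i libraries was found at 6 members, against 31.2% of all genes. A peak in both of these and in 0 of the other 3 DNMT1i libraries was found at 3 members, MYC, MXD4 and MNT, against 14.6% of all genes, NTC and UHRF1KO being of the other batch. WT had 1 library per treatment, so the difference was not tested, and the greater length of the RFTSdel DNMT1i lists moved with it. With all lists at 4254 peaks the members with a peak after DNMT1i were MYC, MXI1, MXD4, MNT and MGA in RFTSdel replicate 1 and MYC, MAX, MXD3, MXD4 and MNT in replicate 2, against 0 in WT, with 20.4%, 20.8% and 14.8% of all genes. With only peaks of -log10 q of at least 4, RFTSdel had 0 members after DNMT1i in either replicate, as had WT, and the shares of all genes were also low, at 5.43%, 12.2% and 1.75%.

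With full lists, UHRF1KO and NTC had the same number of members with a peak, 9 under DMSO and 2 after DNMT1i. Under DMSO, covered length was greater in UHRF1KO than in NTC at 8 of the 9 genes, by little at MGA (3161 against 3154 bp). MLX was the exception, at 311 against 1126 bp. The share of all genes with this direction was not computed, so the count cannot be read as a trait of the network. More of all genes had a peak in UHRF1KO DMSO, 65.6% against 60.7% in NTC DMSO. The UHRF1KO DMSO list was also the longer one, at 32534 against 23568 peaks, and the part of list length was not tested. After DNMT1i, UHRF1KO alone of the pair had a peak at MXI1, and NTC alone at MGA. With 1 library per group these differences had no replicate check.

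Across libraries, 116 peaks lay over the 9 genes, 88 under DMSO and 28 after DNMT1i, in 26 sites. Of these, 10 sites were called in all 5 DMSO libraries, 11 in 0 DNMT1i libraries and 8 in a single library. The fold of the peaks ran from 3.1 to 7.24, with a median of 4.08, and their length from 213 to 4093 bp. The network peaks were of middling strength: their median position by -log10 q within a DMSO list lay between 35.2% and 69.2% from the weakest. After DNMT1i it was 92.4% for the 3 peaks of UHRF1KO, 38.0% for the 2 of NTC, and 58.0% and 33.0% for the 8 and 15 of RFTSdel. Peaks after DNMT1i mostly lay where the line had a peak under DMSO, as did 2 of 2 in NTC, 3 of 3 in UHRF1KO, 8 of 8 in RFTSdel replicate 1 and 13 of 15 in replicate 2. Over all peaks the share was 36.8% in NTC, 63.1% in UHRF1KO, 75.0% in RFTSdel replicate 1 and 71.1% in replicate 2.

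Genes around the network were described by the same measure, in lists chosen by function. Of all genes, 56.9% on average had a peak under DMSO and 27.5% after DNMT1i, and 27.2% had less covered length in 5 of 5 pairs. Of 4 further family members, 75.0% on average had a peak under DMSO and 45.0% after DNMT1i, and 1 had less covered length in 5 of 5 pairs, MLXIP, with a mean of 1501 bp under DMSO and 254 bp after DNMT1i. MYCL, a MYC paralogue, went from 1130 to 678 bp, and MYCN, expressed mainly in neural tissue, had a peak in only 2 libraries. Among 15 genes for MYC coactivators and MYC turnover the shares were 81.3% and 28.0%, and 7 had less in 5 of 5 pairs. Examples are KAT5, an acetyltransferase, at 1136 and 199 bp, and USP28, a deubiquitinase that stabilises MYC, at 905 and 354 bp. FBXW7, the ubiquitin ligase subunit that marks MYC for degradation, had less in 4 pairs, at 1612 and 595 bp.

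Among 10 genes for the corepressors of MXD proteins and MNT the shares were 94.0% and 44.0%, and 6 had less in 5 of 5 pairs. SIN3A, the scaffold that MXD proteins bind, went from 4241 to 1631 bp. Among 12 genes of the PRC1.6 complex around MGA the shares were 90.0% and 40.0%, and 7 had less in 5 of 5 pairs, CBX3 going from 2041 to 1274 bp. Among 23 target genes of MYC or MLX the shares were 93.9% and 40.0%, and 14 had less in 5 of 5 pairs, such as UBTF, a factor of ribosomal RNA transcription, from 3777 to 1630 bp, and ENO1, a glycolytic enzyme, from 2164 to 1041 bp. TERT, the telomerase catalytic subunit and a MYC target, went against these, with a mean of 2060 bp under DMSO and 2066 bp after DNMT1i and less in 2 pairs. The median change was -850 bp for the further family members and -578, -646, -601 and -699 bp for the other lists in the order given. Over all genes it was -268 bp, 4370 of them having no peak in any library. Over the 15663 genes with a peak in any library it was -451 bp. For the 9 network genes the shares were 95.6% and 42.2%, and for all genes 56.9% and 27.5%. In RFTSdel DNMT1i replicates 1 and 2, 8 and 9 of the 10 corepressor genes had a peak, and 9 and 9 of the 12 PRC1.6 genes. The target list had 12 and 21 of 23, and the coactivator and turnover list 7 and 8 of 15. The further family had 3 and 3 of 4. All these shares were above the 34.2% and 47.3% of all genes, so this was not particular to the network. Less covered length in 5 of 5 pairs was found at 4 of the 9 network genes and at 27.2% of all genes. In the lists and the network, 0 genes had more covered length after DNMT1i in 5 of 5 pairs, and 169 of all genes had.

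The genes outside the network with the covered length most like that of MAX over the 10 libraries were WDFY1, GGA1 and HPCAL1, with Pearson r of 0.991, 0.987 and 0.986. WDFY1 averaged 1450 bp under DMSO and 260 bp after DNMT1i, GGA1 1972 and 164 bp, and HPCAL1 4351 and 845 bp. These correlations describe the 10 libraries, which share the 2 treatments and the length of their peak lists, and were the highest among all genes compared.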

How the data were processed

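Anti-GFP ChIP-seq of MV4-11 cells gave 13 labelled samples, of which 2 inputs were not analysed here. The 11 deposited files hold broad peaks, called per library. MACS2 is named in the submitters' processing notes beside BWA, cutadapt, Picard and deepTools, with the build GRCh38. The control library and all settings were not given in the sources used here. In the deposited files, the fold column is the authors' ratio of signal to background for a peak. The deposited −log10 columns hold the authors' −log10 p and −log10 q, and the lowest −log10 q of 1.003 implies a cutoff of q 0.1. The deposited score is 10 times −log10 q in 99.996% of peaks and was not used further. Batch numbers follow the sample labels, which are the reverse of those in the series' design text.

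Peaks overlapping a parental peak by 1 bp were removed. Spans came from RefSeq (GRCh38.p14), extended by 1 kb. Strand came from the RefSeq promoter table for 15842 genes. For the other 4191, MYC among them, a peak within 1 kb of either end counted as a start peak, and distances over MYC were counted from its lower end. DMSO and DNMT1i libraries were paired by line and, for RFTSdel, by replicate number, and covered length was tested per gene with an exact sign-flip permutation test, adjusted by Benjamini-Hochberg over 15663 genes. Named genes are all 9 members, up to 4 genes per list with a peak in the most libraries (some not described), 3 genes most like MAX, and genes sharing a peak. The members and lists were chosen with earlier results of these data known. The lists share some genes (WDR5, HDAC1 and HDAC2). Alternatives changed the peak thresholds, flanks, overlap, start window, list length, pairing, batch and replicates. The code was tested on simulated data. Python 3.11.15, numpy 2.4.6, pandas 2.3.3 and matplotlib 3.10.9 were used.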

Additional observations from a re-analysis of the deposited data

Results flagged for a closer look

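With full lists, MXD4 moved in opposite directions in the 2 kinds of construct. Its covered length changed by 625 and 469 bp from DMSO to DNMT1i in the RFTSdel pairs, and by -993 bp in NTC and -1524 bp in WT, the lines with wild-type GFP-DNMT1 and no guide against UHRF1. The RFTSdel mean of 547 bp less the mean of -1258 bp of NTC and WT gave a difference of 1806 bp. UHRF1KO, also with wild-type GFP-DNMT1, changed by -1429 bp. It was picked out because every sample of one group moved one way and every sample of the other the opposite way, and the difference was not tested. NTC belongs to another batch than RFTSdel, and within batch 1 the comparison rests on 1 WT pair. The MXD4 peaks of RFTSdel had a -log10 q of 9.76 and 5.27 under DMSO and of 3.58 and 3.16 after DNMT1i. With only peaks of -log10 q of at least 4, MXD4 had a peak in the 2 RFTSdel DMSO libraries and in no other library. The opposite directions were absent at that threshold, where covered length was lower after DNMT1i in both RFTSdel pairs.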

How the results depend on the processing

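The number of members with a peak, the number with a start peak, and the log2 covered length were lower after DNMT1i under every peak threshold, flank, overlap and batch setting tried, except for start peaks with lists of equal length, which reversed to a mean of 0.2 members (-5.4 with full lists). With equal lengths the change in members with a peak was -1.2 (-4.8 with full lists) and 0 members were lower in every pair. With a fold of at least 4 the change at starts was -2.4. Members lower in every pair numbered 1 at a -log10 q of at least 4 and 9 within batch 2 alone, against 4. RFTSdel less WT under DNMT1i was 0.0 members at a -log10 q of at least 4, 5.0 with a fold of at least 4 or equal lengths and 6.0 at a -log10 q of at least 2, against 7.5. Under DMSO it was 5.0 at a -log10 q of at least 4 or a fold of at least 4, 4.0 at a -log10 q of at least 2, 0.5 with equal lengths and 0.0 with a flank of 5 kb, against 2.0. UHRF1KO less NTC under DMSO was 2.0 at a -log10 q of at least 2, 1.0 at a -log10 q of at least 4 and -1.0 with equal lengths, against 0.0. Under DNMT1i it was 2.0 at a -log10 q of at least 4, against 0.0. It was 1.0 there at a -log10 q of at least 2, with a fold of at least 4 and with equal lengths. At a -log10 q of at least 4 the log2 covered length rests on 1 pair.

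Leaving out each pair in turn gave -6.0 to -4.25 for members with a peak, -6.5 to -4.75 for start peaks, -2.88 to -1.68 for log2 covered length, 4 to 5 members lower in every pair and 6.0 to 9.0 for RFTSdel less WT under DNMT1i. Without the replicate block, members with a peak changed by -4.8, start peaks by -5.4, log2 covered length by -1.93, and 3095 genes passed the adjusted p of 0.05 against 0 with the pairing, because more arrangements of the samples are possible. Same-numbered RFTSdel libraries deviated together with r = 0.09 across 15663 genes. With 2 replicates per treatment this cannot tell whether libraries of the same number share a culture, which the labels do not state. Of 71 alternative values for single members, each a mean over pairs, 0 reversed in sign. Such a mean can hide a change of direction within a line, as at MXD4 in RFTSdel. Values with the pairing kept could not pass the threshold, because the sign-flip test cannot reach 0.05. Most of the 69 that stayed on their side of it therefore had no other outcome open to them. Without the block, 2 passed it (MAX and MXI1). MXD1 has no peak with a -log10 q of at least 4 and gave no value there. Depth is unknown, so a gene without a peak is one where none was called, not one shown to be unbound.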
